A study of Mus musculus with 11 samples.

Results

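The genotype by oxygen interaction asks, for each gene, whether the change with low oxygen differed between Bmal1-/- and wild-type myoblasts. It was computed on the log2 scale as the hypoxia effect in Bmal1-/- cells (hypoxia minus normoxia) minus the hypoxia effect in wild-type cells, so a positive value means a more positive change in Bmal1-/- cells. All 11 of the 11 libraries of the series entered it, and 14729 of the 22104 listed genes were tested, those with a normalized count of at least 10 in at least 2 libraries. The cells were primary myoblasts, the proliferating precursors of muscle fibres, from the tibialis anterior of C57BL/6 mice of about 8 weeks, grown with 20% fetal bovine serum and basic fibroblast growth factor at 2.5 ng/ml. Total RNA was taken after 6 h at 21% oxygen (normoxia) or 1% oxygen (hypoxia). There were 2 libraries of wild-type cells in normoxia, 3 of wild-type cells in hypoxia, 3 of Bmal1-/- cells in normoxia and 3 of Bmal1-/- cells in hypoxia. How the allele was made, how many mice gave cells and whether replicates were separate cultures are not given in the sources used here, so every p-value here reflects spread among libraries that may be technical in origin.

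Cells sense low oxygen through the prolyl hydroxylases of the EGLN family, which in normal oxygen mark the HIF alpha subunits for destruction by VHL. In low oxygen HIF alpha accumulates, pairs with ARNT and binds DNA at the core ACGTG or GCGTG near genes of glycolysis, pH control, angiogenesis and mitophagy. BMAL1, encoded by Arntl, belongs to the same bHLH-PAS protein family as ARNT. It pairs with CLOCK on the E-box CACGTG, which contains the core ACGTG, and drives the Per, Cry, Nr1d1, Dbp, Ciart and Bhlhe40 genes, several of whose products repress the clock in turn.

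Recovered reads per library numbered 18707697 to 21451760 in normoxia and 23027613 to 33613328 in hypoxia, so every hypoxia library was deeper than every normoxia library. The part of depth in the results was not tested. Counts of libraries of the same group differed by more than counting error, with a chi-square over its degrees of freedom of 4.33 to 20.9. Summed markers of myoblasts lay at 23793 to 28178 normalized counts in all libraries. Those of adipocytes stayed at 0 to 9.53, with 3 of 5 listed nowhere, and those of leukocytes at 16.2 to 50.3. Summed markers of pericytes and smooth muscle, many of which cultured myoblasts may also express, overlapped between no groups. In wild-type cells they lay at 34137 to 35175 in normoxia and 30235 to 31377 in hypoxia. In Bmal1-/- cells they lay at 28799 to 29312 and 25726 to 26181. Fibroblast markers, at 5148 to 5654 in wild-type and 2496 to 3197 in Bmal1-/- libraries, were apart by genotype. So were Schwann markers, at 237 to 289 and 173 to 212. The part of these shifts in the results was not tested. No marker of any cell type was called for the interaction.

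Arntl, the targeted gene (chromosome 7, 113207465 to 113314126, plus strand, GRCm38), had normalized counts of 325, 328 and 322 in wild-type hypoxia, against 264 and 267 in wild-type normoxia. In Bmal1-/- cells it had 128, 134 and 128 in hypoxia, against 109, 117 and 98.8 in normoxia. The genotypes did not overlap at either oxygen level, in the direction of the labels, and reads of the gene remained in every Bmal1-/- library. Arntl rose with hypoxia in the mean over both genotypes, by 0.28 on the log2 scale (SE 0.07, limma adjusted p = 0.0238), and its interaction was -0.02, with a 95% interval of -0.31 to 0.27.

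Of the 14729 tested genes, 1 was called for a positive interaction (0.00679%) and 0 for a negative one (0%) by limma at an adjusted p under 0.05. An unadjusted p under 0.05 was met by 784 genes (5.32%), 444 of them with a positive value (3.01%) and 340 with a negative one (2.31%). On the recovered reads, edgeR called 0 genes upward (0%) and 0 downward (0%), with 777 at an unadjusted p under 0.05 (5.28%). DESeq2 called 4 upward (0.0272%), Gm23925, Nol4l, Hist1h2ac and Hist1h2ah, and 0 downward (0%), with 523 at an unadjusted p under 0.05 (3.55%). The second smallest adjusted p in limma was 0.284. Every named gene below other than Gm23925 was at or above that value, so their interactions are given with 95% intervals, which are not adjusted, as measurements that did not pass the test.

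The interval says how large a difference these libraries could have hidden. The median interaction over all tested genes was -0.002, the median of its absolute value 0.11, and the median SE 0.15. Values above 0 numbered 7295 (49.5%). To be called alone, a gene with that SE needed a difference of at least 1.12 on the log2 scale. The median distance from a gene's estimate to the end of its 95% interval was 1.10 for the 3260 genes with a mean normalized count under 50, 0.38 for the 5511 genes between 50 and 500, and 0.20 for the 5958 genes at 500 or more. Differences well under 2-fold were therefore within reach of the intervals for abundant transcripts, and not for scarce ones.

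Most genes that responded to hypoxia in the mean over both genotypes had an interaction bounded at 2-fold, a bound larger than their median change. For the mean hypoxia effect over both genotypes, 720 genes rose (4.89%) and 377 fell (2.56%). The count of fallen genes moved with single libraries, to 189 without wild-type normoxia 2, 226 without wild-type normoxia 1 and 248 without Bmal1-/- hypoxia 2. Of the 1097 genes, 1023 (93.3%) had an interaction interval inside -1 to 1, which bounds the difference between the genotypes' changes at 2-fold, against 78.5% of all tested genes. Inside the bounds of 1.5-fold were 881 (80.3%), against 61.6% of all tested genes. A small SE favours both a call and a narrow interval, so these shares are descriptions. Among the 720 risen genes the interaction was above 0 in 367 and below 0 in 353, and their median log2 changes were 0.29 in wild-type and 0.33 in Bmal1-/- cells. For the 377 fallen genes the medians were -0.23 and -0.22. The 2-fold and 1.5-fold bounds, 1 and 0.58 on the log2 scale, are wider than these medians. An interval inside them can therefore still hold an absent or reversed response in either genotype. An unadjusted p under 0.05 was met by 81 of the 720 (11.2%), 56 of them positive and 25 negative, and by 26 of the 377 fallen genes (6.9%), 16 positive and 10 negative. Over all 1097 the share was 9.75%, beside 5.32% of all tested genes. Across all tested genes the changes in wild-type and in Bmal1-/- cells, which share no library, correlated with r = 0.33, a description over genes that are not independent replicates.

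**Figure D1:**
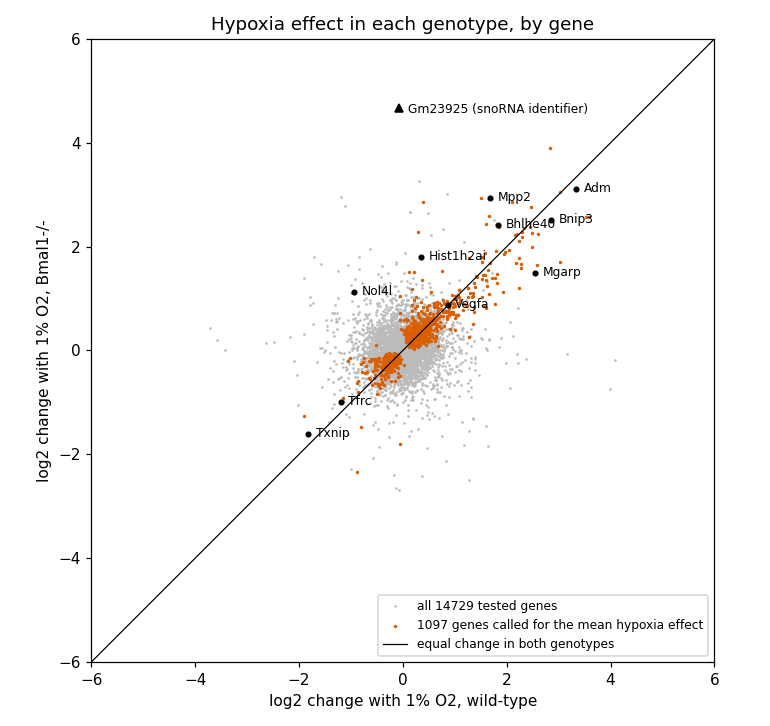
Log2 change with hypoxia in wild-type cells (x axis) against that in Bmal1-/- cells (y axis) for the 14729 tested genes, with the 1097 called for the mean effect in orange and the line of equal change. Adm, Bnip3, Vegfa, Txnip and Tfrc lie near the line, and the snoRNA identifier of Gm23925 stands alone at a wild-type change of -0.08 and a Bmal1-/- change of 4.66.

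Calls made separately in each genotype gave a different count from the test of the difference. Hypoxia raised 251 genes (1.7%) and lowered 69 (0.468%) in wild-type cells, and raised 464 (3.15%) and lowered 138 (0.937%) in Bmal1-/- cells. The calls were shared by 238 genes, all with the same sign, while 82 were called in wild-type cells alone and 364 in Bmal1-/- cells alone. Of the 82, 73 had the same sign in both genotypes, 49 (59.8%) had an interaction interval that held 0, 33 (40.2%) had an unadjusted interaction p under 0.05, and 0 were called for the interaction. Of the 364, 325 had the same sign, 238 (65.4%) had an interval that held 0, 126 (34.6%) had an unadjusted p under 0.05, and 1 was called, Gm23925. Among all tested genes 94.7% of intervals held 0 and 5.32% had such a p. The single-genotype calls come from the same libraries as the interaction, so these shares are descriptions. An effect called in a single genotype does not show that the genotypes differ, and the wild-type contrast rested on 2 normoxia libraries against 3.

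The called gene, Gm23925, is listed under a pair of identifiers that occupy almost the same bases of chromosome 2 on the minus strand (GRCm38), within the span of the host gene Snhg17. ENSMUSG00000064405 is annotated as a small nucleolar RNA at 158359798 to 158359929, and ENSMUSG00000100992 as a long intergenic noncoding RNA at 158359797 to 158359928. Their sequences are shown because the result turns on how reads were divided between them: each is 132 bases long and 131 are shared, and the capital letter marks the base that each has alone.
ENSMUSG00000064405: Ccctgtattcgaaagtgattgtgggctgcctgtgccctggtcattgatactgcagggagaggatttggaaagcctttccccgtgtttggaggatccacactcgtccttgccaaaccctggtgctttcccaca
ENSMUSG00000100992: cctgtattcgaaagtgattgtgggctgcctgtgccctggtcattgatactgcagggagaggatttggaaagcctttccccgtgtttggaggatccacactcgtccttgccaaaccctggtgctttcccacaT

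The snoRNA identifier had normalized counts of 37.5 and 35.4 in wild-type normoxia, 44.8, 34.4 and 26.4 in wild-type hypoxia, 0, 0 and 0 in Bmal1-/- normoxia, and 31.0, 28.2 and 16.4 in Bmal1-/- hypoxia. Only the 3 Bmal1-/- normoxia libraries stood apart. The limma interaction was 4.74 (SE 0.50, 95% interval 3.67 to 5.81, adjusted p = 0.00368). A fitted change against libraries at 0 depends on the pseudocount: it was 2.63 with a pseudocount of 5 (adjusted p = 0.0928) and 5.71 with 0.5 (adjusted p = 0.00138). Against a floor of 3 counts over the group, Bmal1-/- hypoxia was at least 21.2-fold higher than Bmal1-/- normoxia. This is a limit for counting error alone.

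The long noncoding identifier moved the other way in the same libraries. It had 35.3 and 34.2 normalized counts in wild-type normoxia, 42.9, 33.7 and 25.7 in wild-type hypoxia, 65.8, 102 and 94.4 in Bmal1-/- normoxia, and 30.1, 27.2 and 16.4 in Bmal1-/- hypoxia. Outside Bmal1-/- normoxia the identifiers held nearly equal counts in each library, and in Bmal1-/- normoxia all reads were under the long noncoding one. Summed over both identifiers, the locus had 72.8 and 69.6 in wild-type normoxia, 87.7, 68.2 and 52.1 in wild-type hypoxia, 65.8, 102 and 94.4 in Bmal1-/- normoxia, and 61.1, 55.4 and 32.8 in Bmal1-/- hypoxia. The interaction of the sum was -0.76 (SE 0.37, 95% interval -1.56 to 0.05, limma adjusted p = 0.917), so the direction turned. With the pair summed, a choice made after seeing the data, limma and edgeR called 0 genes each, with 782 at an unadjusted p under 0.05 in limma, and DESeq2 called 1, Hist1h2ac. How the authors' counting divided reads between overlapping genes is not given in the sources used here, and its part was not tested. Of the tested genes, 1711 (11.6%) had another listed gene overlapping on the same strand.

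**Figure D2:**
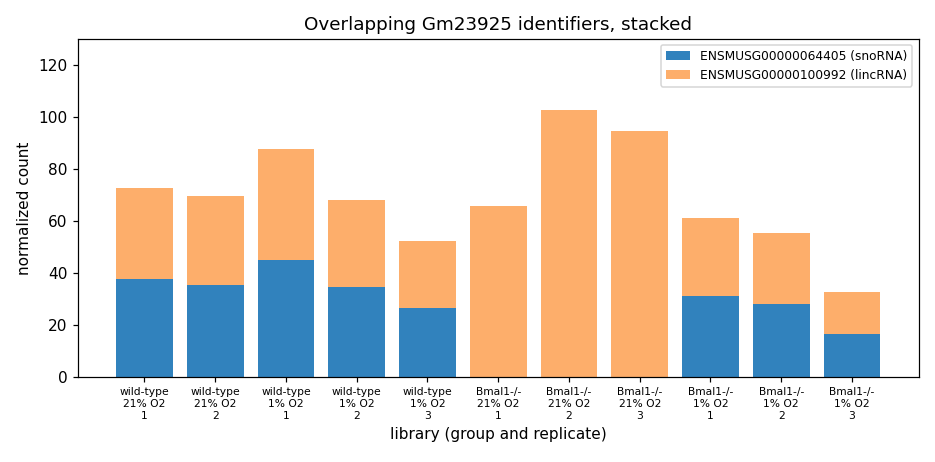
Normalized counts (y axis) of the overlapping Gm23925 identifiers in each of the 11 libraries (x axis), stacked so that the bar height is their sum. The snoRNA identifier is at 0 in the 3 Bmal1-/- normoxia libraries, where the other identifier reaches 65.8 to 102, and the summed bars of Bmal1-/- hypoxia, 61.1, 55.4 and 32.8, lie below those.

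Most glycolysis genes rose with hypoxia, and no difference between the genotypes was called for any. In the mean effect 17 of 21 rose and 0 fell, and the list's median log2 change was 0.77 in wild-type and 0.68 in Bmal1-/- cells. For the interaction 0 of 21 were called, 7 values were positive and 14 negative, and the median was -0.04, beside -0.002 over all tested genes. The interval lay within the 2-fold bounds for 19 and within the 1.5-fold bounds for 17. Slc2a1, the glucose transporter GLUT1, had 846 and 865 normalized counts in wild-type normoxia, 3840, 2919 and 3248 in wild-type hypoxia, 776, 707 and 717 in Bmal1-/- normoxia, and 2960, 2570 and 2459 in Bmal1-/- hypoxia. Oxygen levels did not overlap in either genotype, and its interaction was -0.10 (interval -0.39 to 0.19). Ldha, which makes lactate from pyruvate, had 20607 and 19382 in wild-type normoxia, 35896, 33481 and 32798 in wild-type hypoxia, 21832, 21706 and 21359 in Bmal1-/- normoxia, and 35850, 33360 and 33697 in Bmal1-/- hypoxia. Its interaction was -0.10 (interval -0.24 to 0.03). Pgk1, a phosphoglycerate kinase, was at -0.14 (interval -0.32 to 0.04).

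Pfkfb3, which makes the activator of phosphofructokinase, was the single glycolysis gene at an unadjusted p under 0.05. It had 168 and 153 normalized counts in wild-type normoxia, against 204, 212 and 200 in Bmal1-/- normoxia, without overlap. In hypoxia it reached 1032, 871 and 1042 in wild-type and 1040, 985 and 902 in Bmal1-/- cells, where the genotypes overlapped. Its log2 change was 2.60 in wild-type and 2.24 in Bmal1-/- cells, with an interaction of -0.36 (interval -0.63 to -0.09, limma adjusted p = 0.905). The genotypes were thus apart at 21% oxygen and overlapped at 1% oxygen. A listed gene overlaps Pfkfb3 on the same strand.

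Among HIF targets outside glycolysis, 31 of 33 rose in the mean effect and 0 fell. The median change was 1.38 in wild-type and 1.16 in Bmal1-/- cells, and 0 of 33 were called for the interaction. Its values were positive in 12 and negative in 21, with a median of -0.07. At an unadjusted p under 0.05 there were 1 positive (Bhlhe40) and 3 negative, Hilpda, Kdm3a and Higd1a, the last named after its values were seen (HIG1 domain family, -0.33). The interval lay within the 2-fold bounds for 31 and within the 1.5-fold bounds for 18.

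Vegfa, the angiogenic growth factor, had 2588 and 2762 normalized counts in wild-type normoxia, 5123, 4495 and 4980 in wild-type hypoxia, 2194, 2236 and 2508 in Bmal1-/- normoxia, and 4339, 4144 and 4169 in Bmal1-/- hypoxia. Its log2 changes of 0.86 and 0.87 were nearly equal, and the interaction of 0.01 had an interval of -0.19 to 0.20. Adm, which encodes the vasodilator peptide adrenomedullin, had the largest mean response of the always-named genes, 3.33 in wild-type and 3.11 in Bmal1-/- cells, with an interaction of -0.23 (interval -0.62 to 0.16). Egln3, an oxygen-sensing prolyl hydroxylase that HIF itself induces, had an interaction of -0.08 (interval -0.40 to 0.25). Pdk1, a kinase that shuts pyruvate dehydrogenase, was at -0.07 (interval -0.43 to 0.29). Car9, a carbonic anhydrase of pH control with low counts in normoxia, was at 0.29, and its interval of -0.67 to 1.26 did not bound the difference at 2-fold. Txnip, an inhibitor of glucose uptake, and Tfrc, the transferrin receptor, fell in the mean effect by 1.72 and 1.09 on the log2 scale, with interactions of 0.20 (interval -0.21 to 0.62) and 0.21 (interval -0.06 to 0.48).

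Bnip3, a receptor for the removal of mitochondria, had 1174 and 1081 normalized counts in wild-type normoxia, against 1517, 1524 and 1330 in Bmal1-/- normoxia. In hypoxia it had 9885, 6960 and 7798 in wild-type and 9814, 7757 and 7571 in Bmal1-/- cells. Library values of the genotypes did not overlap in normoxia and overlapped in hypoxia, as for Pfkfb3. The normoxia difference of Bnip3, 0.37, was not called (limma adjusted p = 0.102), and its interaction was -0.33 (interval -0.71 to 0.04). With 2 wild-type libraries in normoxia and 3 in hypoxia, a lack of overlap is easier to reach in normoxia. Kdm3a, a histone demethylase (chromosome 6, 71588972 to 71632990, minus strand), had 775 and 791 in wild-type normoxia, against 921, 943 and 869 in Bmal1-/- normoxia, then 2075, 1919 and 1900 in wild-type hypoxia, against 1941, 1827 and 1793 in Bmal1-/- hypoxia, where the genotypes overlapped. Its changes of 1.32 and 1.02 differed by -0.30 (interval -0.47 to -0.13, limma adjusted p = 0.727). Hilpda, which promotes lipid droplet storage (chromosome 6, 29272488 to 29275446, plus strand), had 198 and 185 in wild-type normoxia, 235, 226 and 239 in Bmal1-/- normoxia, 691, 571 and 559 in wild-type hypoxia, against 529, 490 and 468 in Bmal1-/- hypoxia. Here the order of the genotypes turned without overlap at either oxygen level, higher in Bmal1-/- cells in normoxia and lower in hypoxia. Neither genotype difference was called, at 0.28 in normoxia and -0.29 in hypoxia (limma adjusted p = 0.0949 and 0.0613). Its interaction was -0.57 (interval -0.85 to -0.29, limma adjusted p = 0.598), and it stayed between -0.63 and -0.47 under the alternatives.

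**Figure D3:**
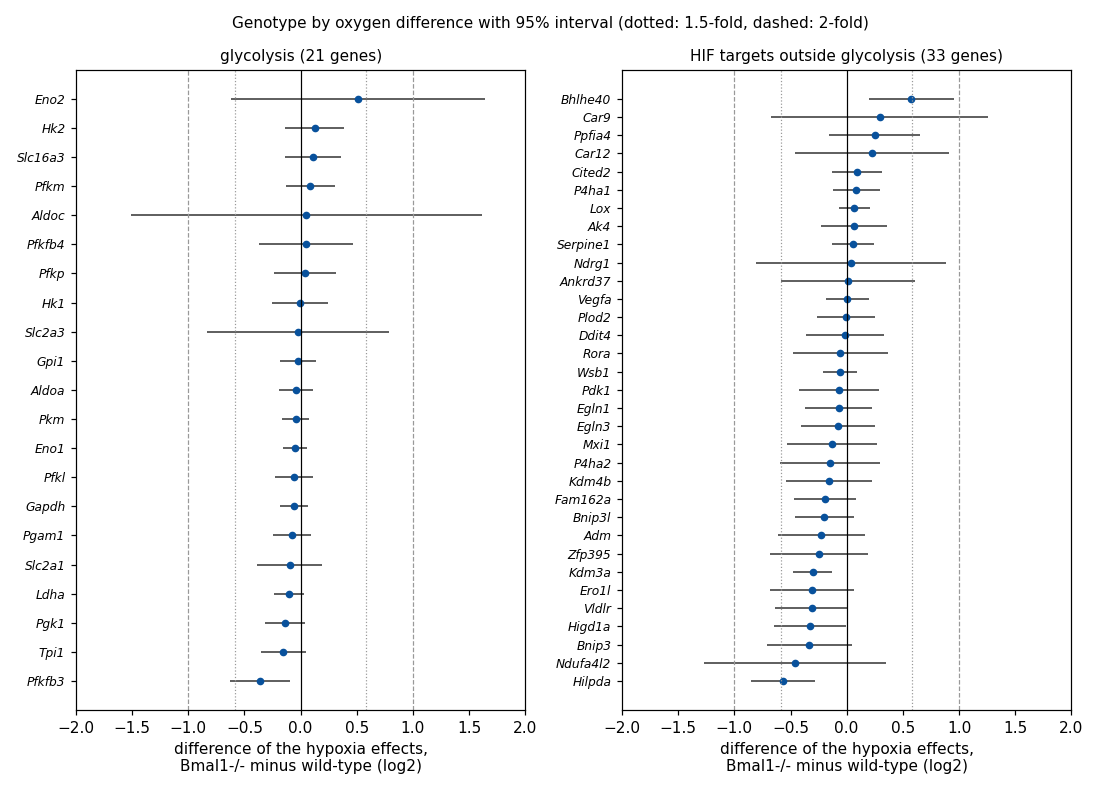
Interaction of each glycolysis gene (left, 21 genes) and each HIF target outside glycolysis (right, 33 genes), with the point at the log2 estimate and the line over its 95% interval. The x axis is the Bmal1-/- change minus the wild-type change, and the vertical lines mark 0, 1.5-fold and 2-fold differences. The unadjusted intervals of Bhlhe40, Kdm3a, Hilpda, Higd1a and Pfkfb3 leave out 0.

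Risen genes picked by their own interaction p were also counted by the oxygen level with the larger genotype difference. Of the 25 risen genes with a negative interaction at an unadjusted p under 0.05, the genotype difference was larger in normoxia in 18 and larger in hypoxia in 7. Among the 56 risen genes with a positive interaction at that level, it was larger in normoxia in 27 and in hypoxia in 29. A negative interaction and a larger difference in normoxia are computed from the same libraries, so these counts are descriptions. The normoxia difference also rests on 2 wild-type libraries and has the larger SE, which favours a larger value there. The share over all tested genes was not computed. Mgarp, a mitochondrial protein gene that responds to hypoxia, had 22.5 and 18.3 normalized counts in wild-type normoxia against 58.3, 45.0 and 42.3 in Bmal1-/- normoxia. In hypoxia it had 168, 110 and 100 in wild-type and 173, 130 and 116 in Bmal1-/- cells, with overlap, and its interaction was -1.05 (interval -1.74 to -0.35). The other risen genes with the largest negative interactions were measured less precisely and did not share 1 pattern. Ppp1r3c, a glycogen-targeting subunit of protein phosphatase 1, at -1.03 (interval -2.10 to 0.04), and the keratin gene Krt19, at -0.96 (interval -2.27 to 0.35), had the larger genotype difference in normoxia, 0.80 against -0.22 and 0.70 against -0.26 in hypoxia. Kbtbd11, at -0.85 (interval -1.86 to 0.16), and Unc13a, at -0.64 (interval -1.48 to 0.20), had the larger one in hypoxia, -0.57 against 0.28 and -0.75 against -0.12 in normoxia. Kbtbd11 had 104 and 83.3 in wild-type normoxia against 218, 78.7 and 83.6 in Bmal1-/- normoxia. Its interaction was -0.37 without the library at 218, and that of Unc13a was -0.33 without Bmal1-/- hypoxia 1. Among fallen genes the small nucleolar RNA gene Snora3, which overlaps Rpl27a, was at -0.67 (interval -1.55 to 0.21). Mpp2, a membrane scaffold gene, went the other way at 1.24 (interval 0.25 to 2.24), with 32.1 and 22.8 in wild-type normoxia, against 12.4, 7.5 and 17.4 in Bmal1-/- normoxia, and 124, 59.0 and 97.2 against 113, 79.0 and 99.4 in hypoxia. Ccdc120, a coiled-coil gene, was at 1.41 (interval 0.45 to 2.36), with Bmal1-/- hypoxia libraries at 198, 124 and 81.0 and the other groups between 32.3 and 85.8.

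Genes of the oxygen sensor showed no called difference. Of 9 tested, 3 rose in the mean effect, 0 were called for the interaction, and 0 reached an unadjusted p under 0.05. Hif1a, the alpha subunit, had 3480 and 3544 normalized counts in wild-type normoxia, 3817, 3559 and 3464 in wild-type hypoxia, 3416, 3674 and 3273 in Bmal1-/- normoxia and 3597, 3449 and 3288 in Bmal1-/- hypoxia. All groups overlapped, and the interaction of -0.04 had an interval of -0.21 to 0.13. Epas1, another alpha subunit, lay at 1.91 to 13.7 normalized counts over all libraries, and its interval of -1.76 to 2.13 bounds nothing of use. Vhl was at -0.35 (interval -0.72 to 0.01) and Arnt at -0.22 (interval -0.46 to 0.03).

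Bhlhe40, Cry1, Per2 and Nr1d1 differed between the genotypes at both oxygen levels by limma, and the hypoxia response of no clock gene was called as different. Of 14 tested clock repressors and E-box outputs, 3 rose in the mean effect and 0 were called for the interaction, with 10 values positive, 4 negative and a median of 0.20. The 2 at an unadjusted p under 0.05, Bhlhe40 and Ciart, were both positive. Bhlhe40, the repressor DEC1 (chromosome 6, 108660629 to 108666925, plus strand), is a target of both the clock and HIF. It had 366 and 372 normalized counts in wild-type normoxia, 1493, 1151 and 1339 in wild-type hypoxia, 117, 120 and 112 in Bmal1-/- normoxia, and 738, 628 and 517 in Bmal1-/- hypoxia. No groups overlapped, and Bmal1-/- hypoxia stayed below wild-type hypoxia. Its log2 change was 1.84 in wild-type and 2.41 in Bmal1-/- cells, and the interaction was 0.57 (interval 0.20 to 0.95, limma adjusted p = 0.871). On the log2 scale the genotype difference was -1.66 in normoxia and -1.09 in hypoxia (limma adjusted p = 2.34e-06 and 3.53e-05).

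Ciart, a repressor also known as CHRONO (chromosome 3, 95878503 to 95882251, minus strand), had 48.2 and 44.5 normalized counts in wild-type normoxia, 195, 141 and 180 in wild-type hypoxia, 60.8, 52.5 and 69.5 in Bmal1-/- normoxia, and 320, 361 and 283 in Bmal1-/- hypoxia. It was higher in Bmal1-/- cells at both oxygen levels without overlap, which is the reverse order of Bhlhe40. Its genotype difference was called in hypoxia, at 0.90, and not in normoxia, at 0.38 (limma adjusted p = 0.00129 and 0.187). The interaction of Ciart was 0.52 (interval 0.05 to 1.00, limma adjusted p = 0.917). Cry1, a core repressor, had 258 and 291 in wild-type normoxia, 276, 276 and 281 in wild-type hypoxia, 822, 791 and 844 in Bmal1-/- normoxia and 872, 955 and 960 in Bmal1-/- hypoxia. The genotypes were far apart, the mean hypoxia effect was not called, and the interaction of 0.16 had an interval of -0.05 to 0.38. Per2, another core repressor, was at 0.26 (interval -0.19 to 0.71). Nr1d1, which encodes REV-ERB alpha, had 132 and 153 in wild-type normoxia, 103, 108 and 122 in wild-type hypoxia, and 16.2 to 26.3 over the 6 Bmal1-/- libraries, with an interaction of 0.41 (interval -0.24 to 1.05). Dbp, a D-box activator, was at 0.13 (interval -0.54 to 0.81).

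Of 8 tested clock activators and ROR-element outputs, 4 rose in the mean effect and 0 were called for the interaction, with 2 positive, 6 negative and a median of -0.05. Those at an unadjusted p under 0.05 were Arntl2 and Nfil3, both negative. Arntl2, the paralog of Arntl (chromosome 6, 146796055 to 146833529, plus strand), had 52.5 and 63.9 normalized counts in wild-type normoxia, 80.1, 68.2 and 150 in wild-type hypoxia, 86.9, 112 and 99.9 in Bmal1-/- normoxia, and 76.6, 80.8 and 55.3 in Bmal1-/- hypoxia. Wild-type hypoxia 3 stood above the other libraries of its group, and the genotypes overlapped in hypoxia. Its interaction was -1.18 (interval -1.98 to -0.38, limma adjusted p = 0.871). Nfil3, a D-box repressor, was at -0.26 (interval -0.50 to -0.01). Nampt, which limits the rate of NAD salvage, rose in the mean effect by 0.81 and had an interaction of -0.16 (interval -0.44 to 0.12). It overlaps a listed gene on the same strand. Nmrk1, a nicotinamide riboside kinase, was at -0.61 (interval -1.03 to -0.19). In the NAD list 0 of 12 were called for the interaction.

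**Figure D4:**
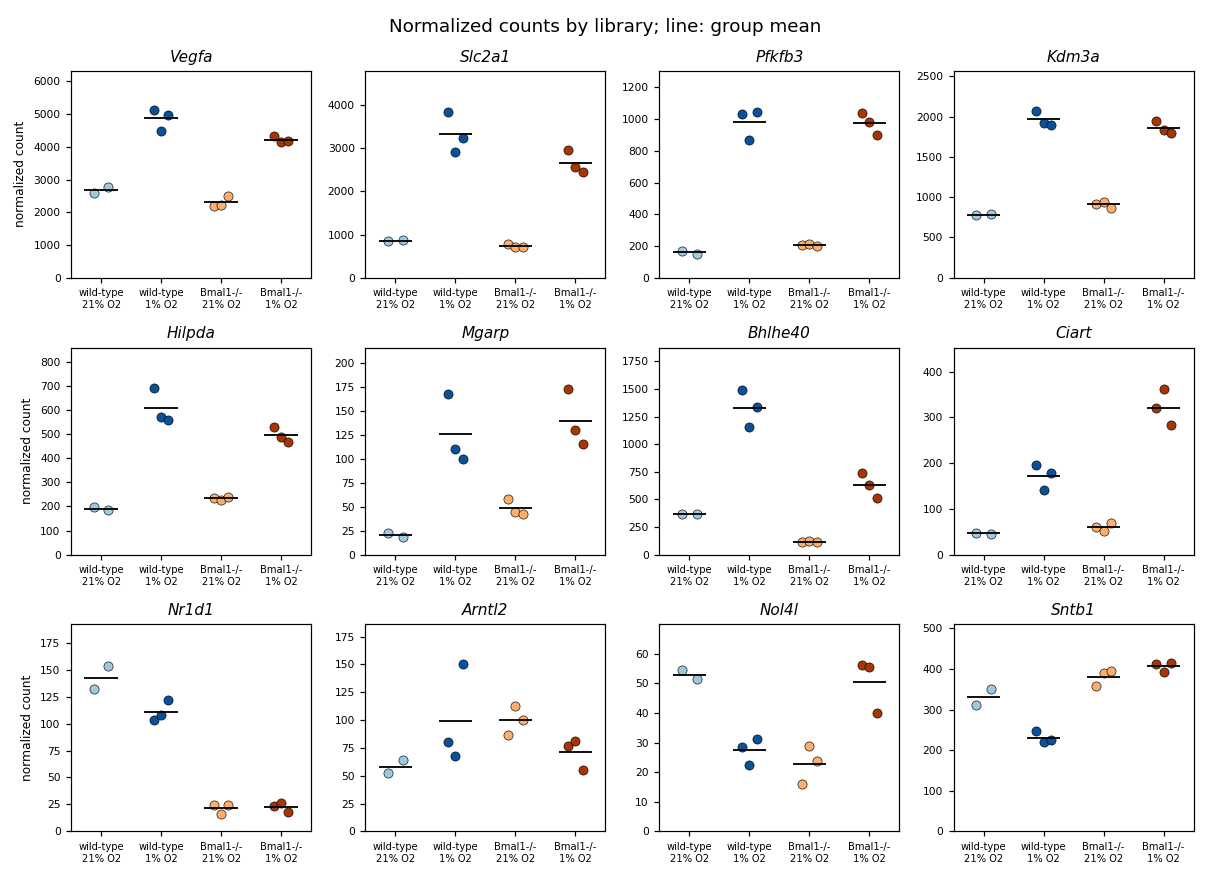
Normalized counts (y axis, from 0) of 12 genes in each library by group (x axis), with a line at the group mean. Vegfa and Slc2a1 move in parallel in both genotypes, and Pfkfb3 and Mgarp differ in normoxia and overlap in hypoxia. Hilpda turns its order by library values, with no genotype difference called at either oxygen level. Bhlhe40 is lower and Ciart higher in Bmal1-/- cells at both oxygen levels, though the Ciart difference was called in hypoxia only.

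Promoter windows of the always-named genes with the E-box CACGTG are shown because that motif can be read by CLOCK with BMAL1 and holds the HIF core. The table of RefSeq promoters on GRCm38.p6, from 250 bases before to 50 after a gene's start, held 21 of the 25 always-named genes, and 6 of these genes had a window with CACGTG. The table can hold several starts for a gene: the windows shown for Pfkfb3 and Ldha lie inside the genes as GENCODE annotates them (11471433 to 11554077 on chromosome 2 and 46841475 to 46855627 on chromosome 7), at internal RefSeq transcript starts. The 5 with the largest mean hypoxia effect are printed 5′ to 3′ on the gene's strand, with capitals on CACGTG and on ACGTG outside it, found on either strand. They lie at chr7:138909457-138909756 (Bnip3, minus), chr2:11502041-11502340 (Pfkfb3, minus), chr3:95882179-95882478 (Ciart, minus), chr7:46845554-46845853 (Ldha, plus) and chr10:85185005-85185304 (Cry1, minus).
Bnip3: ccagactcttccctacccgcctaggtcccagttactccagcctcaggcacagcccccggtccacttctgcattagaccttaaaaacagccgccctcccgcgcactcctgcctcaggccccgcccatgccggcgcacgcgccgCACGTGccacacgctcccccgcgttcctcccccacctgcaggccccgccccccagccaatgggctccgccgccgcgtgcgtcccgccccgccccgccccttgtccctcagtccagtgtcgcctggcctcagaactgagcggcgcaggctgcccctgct
Pfkfb3: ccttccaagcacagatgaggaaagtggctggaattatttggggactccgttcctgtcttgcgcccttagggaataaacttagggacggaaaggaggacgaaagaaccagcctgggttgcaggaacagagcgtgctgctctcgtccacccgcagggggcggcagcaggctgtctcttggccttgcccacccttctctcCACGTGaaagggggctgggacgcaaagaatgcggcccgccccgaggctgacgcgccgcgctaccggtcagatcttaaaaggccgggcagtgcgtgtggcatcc
Ciart: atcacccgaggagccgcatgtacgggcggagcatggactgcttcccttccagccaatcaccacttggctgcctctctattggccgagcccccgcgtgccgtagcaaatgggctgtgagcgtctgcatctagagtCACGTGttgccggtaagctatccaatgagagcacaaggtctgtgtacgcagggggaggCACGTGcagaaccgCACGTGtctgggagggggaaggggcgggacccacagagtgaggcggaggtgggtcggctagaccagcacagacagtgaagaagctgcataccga
Ldha: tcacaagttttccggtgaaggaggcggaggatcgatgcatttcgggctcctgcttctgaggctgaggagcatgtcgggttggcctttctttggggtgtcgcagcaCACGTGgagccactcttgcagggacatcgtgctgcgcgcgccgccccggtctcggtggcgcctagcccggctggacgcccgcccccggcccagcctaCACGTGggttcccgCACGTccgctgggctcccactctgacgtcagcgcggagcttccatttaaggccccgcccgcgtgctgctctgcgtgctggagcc
Cry1: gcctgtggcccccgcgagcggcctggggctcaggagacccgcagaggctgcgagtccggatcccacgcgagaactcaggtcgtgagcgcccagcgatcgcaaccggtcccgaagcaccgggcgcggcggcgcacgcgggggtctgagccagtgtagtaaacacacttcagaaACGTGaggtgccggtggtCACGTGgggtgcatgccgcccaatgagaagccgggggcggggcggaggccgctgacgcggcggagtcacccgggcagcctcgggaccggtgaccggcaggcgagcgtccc

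Ciart held 3 CACGTG, Ldha 2, and Bnip3, Pfkfb3 and Cry1 1 each. Beside these windows stand interactions of both signs, 0.52 for Ciart, 0.16 for Cry1, -0.10 for Ldha, -0.33 for Bnip3 and -0.36 for Pfkfb3. Over all 32851 windows, 7.15% contained CACGTG, 19.6% contained ACGTG (which every CACGTG contains) and 32.4% contained GCGTG. The 1236 tested genes with CACGTG in the window had a median interaction of -0.005, and 5.02% of them were at an unadjusted p under 0.05. For the 9194 tested genes without it these were -0.002 and 4.94%. The motif matches are a description of these windows and not of binding.

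The gene with the smallest p after Gm23925 was Nol4l, a nucleolar protein-like gene (chromosome 2, 153407462 to 153529971, minus strand). It had 54.6 and 51.4 normalized counts in wild-type normoxia, 28.6, 22.5 and 31.1 in wild-type hypoxia, 16.1, 28.7 and 23.9 in Bmal1-/- normoxia, and 56.3, 55.4 and 40.0 in Bmal1-/- hypoxia. The order of the genotypes was reversed between oxygen levels without overlap at either. Its interaction was 2.07 (SE 0.36, interval 1.30 to 2.83, limma adjusted p = 0.284), and DESeq2 gave an adjusted p of 0.0437, the lowest over the alternatives. Sntb1, which encodes beta-1-syntrophin of the dystrophin complex (chromosome 15, 55636388 to 55906949, minus strand), had 311 and 350 in wild-type normoxia, 247, 221 and 225 in wild-type hypoxia, 357, 390 and 395 in Bmal1-/- normoxia and 412, 391 and 415 in Bmal1-/- hypoxia. Its change with hypoxia was called in wild-type cells, at -0.51, and not in Bmal1-/- cells, at 0.09 (limma adjusted p = 0.00547 and 0.596). The genotype difference was 0.20 in normoxia and 0.81 in hypoxia (limma adjusted p = 0.181 and 1.31e-05). The interaction of Sntb1 was 0.61 (interval 0.35 to 0.86, limma adjusted p = 0.529). Scand1 was at 1.10 (interval 0.60 to 1.60) and Zfp771 at 1.21 (interval 0.65 to 1.77).

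Among genes with a mean of 50 or more in the highest group and no predicted-model symbol, the negative interactions with the smallest p, Hilpda aside, included those of Zfp946 at -0.61 (interval -0.89 to -0.33), Afg3l1 at -0.52 (interval -0.77 to -0.27), C9orf72 at -0.43 (interval -0.65 to -0.21) and Tmem165 at -0.30 (interval -0.46 to -0.15). Tbc1d12 had 91.0 and 94.8 normalized counts in wild-type normoxia, 137, 117 and 132 in wild-type hypoxia, 90.6, 94.9 and 85.7 in Bmal1-/- normoxia and 75.7, 80.8 and 65.6 in Bmal1-/- hypoxia. The genotypes overlapped in normoxia and were apart in hypoxia, and its interaction was -0.76 (interval -1.15 to -0.36). Hells, a chromatin remodeller, was at -0.43 (interval -0.66 to -0.20) and Bend6 at -0.49 (interval -0.77 to -0.22). Afg3l1, C9orf72, Tmem165 and Bend6 each overlap another listed gene on the same strand.

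Replication-dependent histone genes, which are transcribed in S phase and whose messages mostly lack a poly(A) tail, were prominent among the positive values. The total RNA preparation can retain such messages. This set was put together after its values were seen, so its counts describe these libraries and test nothing. Of 61 tested genes 0 were called by limma for the interaction, 58 values were positive and 3 negative (the lowest, -2.53, from Hist1h2ao with 0 to 18.6 normalized counts), and 40 positive and 0 negative values had an unadjusted p under 0.05, beside 3.01% and 2.31% of all tested genes. The median was 0.29, and 0.21 to 0.35 when single libraries were left out. Hypoxia raised 38 of the 61 in Bmal1-/- cells and 0 in wild-type cells by call, beside 3.15% and 1.7% of all tested genes. Their median log2 changes were 0.35 and 0.07. These separate calls do not show that the genotypes differ, and the wild-type contrast rested on 2 normoxia libraries. By class the median interaction was 0.59 for H2A (14 of 17 at an unadjusted p under 0.05), 0.38 for H3 (11 of 12), 0.25 for H4 (10 of 13), 0.11 for H2B (4 of 14) and 0.07 for the linker histone H1 (1 of 5).

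The summed H2A genes had 24993 and 20548 normalized counts in wild-type normoxia, 23282, 22106 and 25149 in wild-type hypoxia, 17832, 17119 and 20935 in Bmal1-/- normoxia, and 29963, 27530 and 29615 in Bmal1-/- hypoxia. Bmal1-/- hypoxia lay above all other libraries, while the genotypes overlapped in normoxia. Over the 17 H2A genes the median genotype difference was -0.27 in normoxia and 0.31 in hypoxia, so both oxygen levels entered the interaction. Among single genes, Hist1h2ac (chromosome 13, 23681467 to 23683948, minus strand) had 1254 and 996 in wild-type normoxia, 1249, 1278 and 1255 in wild-type hypoxia, 887, 922 and 984 in Bmal1-/- normoxia and 1609, 1496 and 1629 in Bmal1-/- hypoxia. Its interaction was 0.59 (SE 0.11, interval 0.35 to 0.83, limma adjusted p = 0.529). DESeq2 gave it an adjusted p of 0.00617, the lowest over the alternatives. Its limma value was 0.42 without wild-type normoxia 1 and 0.75 without wild-type normoxia 2. The genotype difference of Hist1h2ac was called in hypoxia, at 0.32, and not in normoxia, at -0.26 (limma adjusted p = 0.0141 and 0.0666). Hist1h2ah was at 1.30 (interval 0.70 to 1.89) and Hist1h2ai at 1.45 (interval 0.66 to 2.23). Their genotype differences were called in normoxia, at -0.83 and -1.07 (limma adjusted p = 0.0219 and 0.0249). In hypoxia they were not called, at 0.46 and 0.38 (limma adjusted p = 0.161 and 0.432). The wild-type normoxia libraries of Hist1h2ai were at 364 and 167, and its value was 0.88 without the first and 2.01 without the second. Hist1h2an was at 1.00 (interval 0.46 to 1.55), Hist2h2aa2 at 0.64 (interval 0.34 to 0.94) and Hist2h2ac at 0.46 (interval 0.24 to 0.68). Histone genes of a class are near-identical copies, and how the counting divided reads between them was not tested. Among 24 DNA replication and mitosis genes 9 values were positive and 15 negative, with a median of -0.04 and 0 at an unadjusted p under 0.05. All 24 of their intervals lay within the 1.5-fold bounds, among them those of the helicase subunit Mcm7 at 0.12 (interval -0.03 to 0.27) and the mitotic kinase Aurka at -0.12 (interval -0.29 to 0.05).

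**Figure D5:**
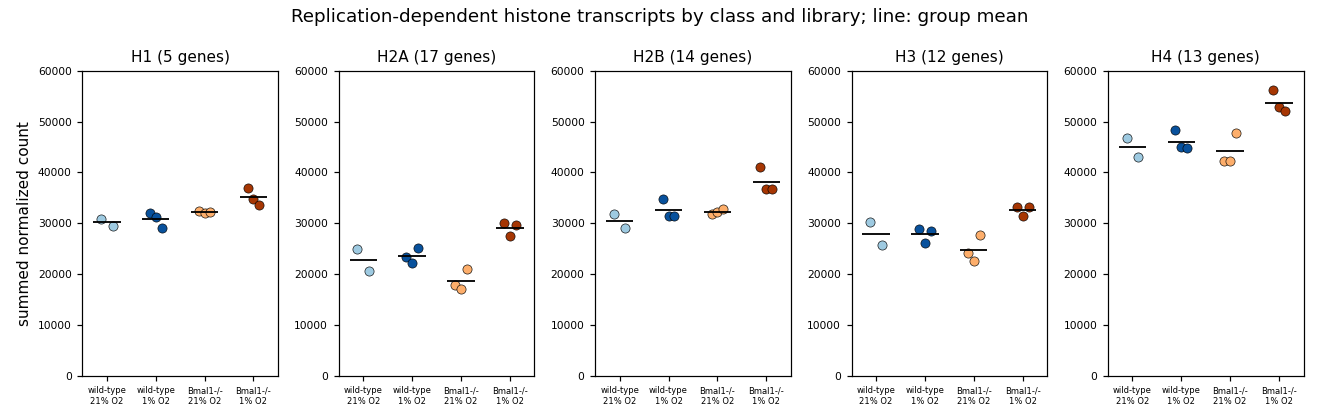
Summed normalized counts (y axis, from 0) of replication-dependent histone genes of 5 classes in each library by group (x axis), with a line at the group mean. For H2A the Bmal1-/- hypoxia libraries, 29963, 27530 and 29615, lie above all others, and the difference between oxygen levels in Bmal1-/- cells is smaller for H1 and H2B.

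No muscle gene of the lists was called. Of 10 tested genes of satellite cell and myoblast identity 0 were called for the interaction, with a median of 0.10 and 2 positive values at an unadjusted p under 0.05. Myod1, the master regulator of myoblasts, had 9502 and 9124 normalized counts in wild-type normoxia, 8196, 7793 and 8851 in wild-type hypoxia, 8715, 7983 and 8917 in Bmal1-/- normoxia and 8352, 8429 and 8977 in Bmal1-/- hypoxia. Its interaction was 0.18 (interval 0.01 to 0.35, limma adjusted p = 0.917). Cdh15, M-cadherin, was at 0.28 (interval 0.07 to 0.48) and Pax7, the satellite cell factor, at 0.17 (interval -0.12 to 0.45). A listed gene overlaps Cdh15 on the same strand. Among 15 differentiation genes 0 were called and 0 reached an unadjusted p under 0.05. Myog, the factor that starts differentiation, was at 0.07 (interval -0.21 to 0.35), Mef2c, a muscle transcription factor, at -0.17 (interval -0.46 to 0.13) and Myh8, the perinatal myosin heavy chain, at 0.16 (interval -0.30 to 0.61).

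Extracellular matrix genes had a median interaction of 0.12, with 19 of 24 positive, beside 49.5% of all tested genes. Of these matrix genes 0 were called, and 3 positive values had an unadjusted p under 0.05. Fn1, fibronectin, had 11688 and 12874 normalized counts in wild-type normoxia, 11417, 11777 and 13351 in wild-type hypoxia, 6943, 6899 and 7401 in Bmal1-/- normoxia and 7956, 8957 and 8097 in Bmal1-/- hypoxia. It was lower in Bmal1-/- cells at both oxygen levels without overlap, and its interaction was 0.25 (interval 0.04 to 0.45, limma adjusted p = 0.905). Loxl1, a collagen cross-linking enzyme, was at 0.28 (interval 0.03 to 0.53). Summed fibroblast markers, 9 of 10 listed, lay at 5148 to 5654 in wild-type and 2496 to 3197 in Bmal1-/- libraries, with 1 marker not listed. Their median interaction was 0.09 and 0 of 7 tested reached an unadjusted p under 0.05. Their part in the matrix values was not tested, and in bulk samples fewer cells of a type and less RNA per cell cannot be told apart.

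In the remaining lists 0 genes were called as well. ER chaperones had 14 of 15 values below 0 with a median of -0.06, and nuclear-encoded respiratory chain genes 19 of 24 with a median of -0.04. Of all tested genes 49.5% were above 0. Members of a list share the same libraries, so their signs are not independent. The intervals of all 15 and all 24 lay inside the 1.5-fold bounds. Hspa5, the ER chaperone BiP, was at -0.17 (interval -0.32 to -0.01), and -0.11 without wild-type normoxia 2. Its relative Hsp90b1, which overlaps other listed genes on the same strand, was at -0.12 (interval -0.25 to 0.00). Of the respiratory chain, Sdhc of complex II was at -0.23 (interval -0.42 to -0.03) and Ndufb5 of complex I at -0.15 (interval -0.33 to 0.02). Mitochondrially encoded transcripts ranged from -1.11 to 0.84, with mt-Nd3 at 0.78 (interval 0.13 to 1.43, and 0.50 without Bmal1-/- hypoxia 3) and mt-Atp6 at -0.53 (interval -0.91 to -0.15). On the same strand mt-Atp6 overlaps mt-Atp8 and mt-Co3. The medians were -0.02 for p53 targets, 0.07 for immediate early genes, -0.01 for the integrated stress response, -0.02 for pyruvate dehydrogenase and the TCA cycle, -0.03 for cholesterol synthesis and -0.01 for iron genes. Their members with the smallest p were Bax, which promotes apoptosis, at -0.22 (interval -0.41 to -0.04) and Phlda3 at -0.19 (interval -0.36 to -0.02) among p53 targets, and Jund at 0.44 (interval -0.08 to 0.96) and Atf3 at -0.63 (interval -1.36 to 0.10) among immediate early genes. Pdk2, a pyruvate dehydrogenase kinase, was at -0.49 (interval -0.88 to -0.09), and Dld, a subunit of that complex, at -0.14 (interval -0.29 to 0.02). In cholesterol synthesis Dhcr7 was at -0.59 (interval -1.13 to -0.05), and -0.25 without wild-type normoxia 1, and Fdps at -0.20 (interval -0.42 to 0.03). Slc11a2, the iron transporter DMT1, had 830 and 582 normalized counts in wild-type normoxia, 355, 438 and 409 in wild-type hypoxia, 593, 532 and 520 in Bmal1-/- normoxia and 436, 466 and 459 in Bmal1-/- hypoxia. Its fall with hypoxia was smaller in Bmal1-/- cells by estimate, with an interaction of 0.53 (interval 0.16 to 0.90, limma adjusted p = 0.905). The value was 0.27 without wild-type normoxia 1, the library at 830. Hmox1, heme oxygenase 1, was at -0.29 (interval -0.50 to -0.07, and -0.18 without wild-type normoxia 2). In the integrated stress response list, Slc7a5, an amino acid transporter, was at 0.35 (interval 0.15 to 0.56) and Vldlr, a lipoprotein receptor gene that is also in the HIF list, at -0.31 (interval -0.64 to 0.02). Inflammatory cytokines and chemokines, with 11 of 16 tested, had 8 values below 0 and the lowest list median, -0.24, and only 6 of their intervals lay within the 2-fold bounds. The chemokine gene Ccl2 was at 0.28 (interval -0.05 to 0.60) and the cytokine gene Il11 at -0.51 (interval -1.17 to 0.15).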

How the data were processed

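Total RNA of 11 myoblast libraries was sequenced after stranded library preparation from 1 µg each, per the labels' protocols. The submitters' processing notes name bcl2fastq, STAR, Picard, HTSeq, RSEM, DESeq2 and the mm10 build. Which tool made the table, and how reads over several genes were counted, is not given in the sources used here. The values the authors deposited are signal, namely gene counts divided by a size factor per library, for 22104 Ensembl genes, of which 21819 matched a symbol. Recovering the reads gave whole numbers for 100% of values within 0.01 read. No column was left out. Annotation came from GENCODE M21.

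Values were analysed as log2(value + 1), which understates changes of low genes. Genes reaching a value of 10 in 2 or more libraries were fitted with limma 3.58.1 in R 4.3.3 (4 group means, variance trend, 7 residual and 6.35 prior degrees of freedom). P-values are two-sided, Benjamini-Hochberg adjusted across the 14729 genes, and called under 0.05. The 95% intervals come from that fit and are not adjusted. Alternatives were edgeR 4.0.16 (quasi-likelihood) and DESeq2 1.42.0 on the recovered reads, other pseudocounts, filters and scalings, and each library left out. The fit was tested on simulated data.

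The members, lists and naming rule were chosen with earlier results of these data known. Named were 25 genes always, genes called by any tool, the 8 smallest p-values in each direction, the 6 largest interactions in each direction among genes called for the mean effect (both with a highest group mean of 50 or more and no predicted-model symbol), and the members of each list with the smallest p, at most 2.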

Additional observations from a re-analysis of the deposited data

Results flagged for a closer look

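The interaction of Gm23925 (ENSMUSG00000064405), 4.74 on the log2 scale, was flagged because the hypoxia effects of the genotypes differed in the test of the difference itself, -0.08 in wild-type and 4.66 in Bmal1-/- cells. The sum with the overlapping identifier gave -0.76.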

How the results depend on the processing

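No paired analysis was possible because the labels give running numbers and no link between libraries of different groups. The count of upward interactions was 1, and it was 4 with DESeq2 and 0 with edgeR, with a pseudocount of 5, with a minimum value of 50, and with the Gm23925 pair summed in limma or edgeR. Leaving out single libraries gave 1 to 2 upward calls (2 without wild-type normoxia 2, adding Hist1h2ac, or without Bmal1-/- normoxia 3, adding Hist1h3h) and 0 to 1 downward calls (1 without Bmal1-/- hypoxia 2, wild-type hypoxia 3, wild-type normoxia 1 or wild-type normoxia 2). Genes at an unadjusted p under 0.05 then numbered 625 to 1156, the most without Bmal1-/- normoxia 3. Genes called upward for the mean hypoxia effect numbered 501 to 727 and downward 189 to 339 with single libraries left out, and 224 downward without the variance trend. Those with an interval inside -1 to 1 numbered 607 to 981, and 679 without the variance trend. Removing a wild-type normoxia library left that group with 1, whose spread was assumed to be that of the other groups. The Gm23925 interaction reversed to -0.76 in limma, -0.77 in DESeq2 and -0.76 in edgeR with the pair summed. Of 1701 values of named genes under alternatives, 1692 stayed on their side of the threshold without reversing a call, 4 became called (Hist1h2ac, Hist1h2ah and Nol4l with DESeq2, Hist1h2ac without wild-type normoxia 2), 2 were no longer called (Gm23925 with edgeR and with a pseudocount of 5) and 3 reversed. The sign of the estimate also changed in at least 1 alternative for Arntl, Hif1a, Epas1, Vegfa, Slc2a1, Pdk1, Car9, Egln3, Dbp, Myog and Myh8. The median interaction of all genes stayed between -0.004 and 0.001 under the alternatives. Depth limits scarce genes: under a mean of 50 normalized counts the median interval reached 1.10 to either side.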

Other observations

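The negative interaction with the smallest p of all tested genes was that of Gm24497, a small nuclear RNA gene on chromosome 1 (72244213 to 72244403, plus strand), which was singled out after its values were seen. It had 1463 and 1171 normalized counts in wild-type normoxia, 3062, 2024 and 2201 in wild-type hypoxia, 3505, 2891 and 3000 in Bmal1-/- normoxia, and 1667, 788 and 1784 in Bmal1-/- hypoxia. The order of the genotypes was reversed between oxygen levels without overlap at either, and the interaction was -2.10 (SE 0.36, interval -2.88 to -1.32, limma adjusted p = 0.284). H2afx, a histone gene outside the replication-dependent clusters and also chosen after its values were seen, had an interaction of 0.58 (interval 0.27 to 0.88, limma adjusted p = 0.598), beside the H2A median of 0.59.

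Gm42418, annotated as a long noncoding RNA, ranged from 15636 to 316450 normalized counts over the libraries and Lars2, a mitochondrial leucyl-tRNA synthetase gene, from 11954 to 202508. Both rose in the mean hypoxia effect, by 2.11 and 2.23 on the log2 scale (limma adjusted p = 0.00952 and 0.00112). Their interactions were -0.94 (interval -2.82 to 0.95) and -0.49 (interval -1.98 to 1.01).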
